A study of Oryza sativa with 13 samples.

Results

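DNA methylation in embryo and in endosperm was compared in rice seeds at 9 days after pollination (DAP), with 1 library of each tissue and no replicates. Both libraries came from the japonica cultivar Zhonghua11 (ZH-11). They are 2 of the 13 samples of a series that also holds ZH-11 embryo of 3 and 6 DAP, ZH-11 endosperm of 2, 3 and 6 DAP and 6 samples of the indica cultivar 93-11, the last of which were not analysed here. Plants grew in a phytotron, and embryo and endosperm were dissected by hand and kept in ethanol before DNA was extracted. Fragments carrying 5-methylcytosine were captured with an antibody and sequenced (MeDIP-seq). The rule for the comparison takes the peak list of each library, 55242 embryo and 36132 endosperm peaks of the 302642 peaks in the 7 ZH-11 lists. A peak is a stretch in which captured fragments pile up above their surroundings. The labels give the tissue, and the lists hold no expression values with which to check it. No number of seeds, plants or pools is stated for a library, so the spread between plants is unknown.

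Cereal endosperm arises beside the embryo when a second sperm cell fertilises the central cell, and it feeds the embryo and the germinating seedling. In plants, cytosines are methylated in CG, CHG and CHH contexts (H is any base but G), mostly over transposons and repeats, and also in the bodies of many genes. In rice, the maternal genome is known to lose methylation at many sites in the central cell before fertilisation, through DNA glycosylases that cut out methylated cytosine, and endosperm carries this maternal genome on. An antibody capture reports how much methylated DNA a stretch holds and does not separate the sequence contexts or the parental genomes. The lists name no genes and their genome build is not given in the sources used here, so regions are identified by chromosome, start and end as the lists give them, without gene annotation.

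At 9 DAP, embryo had more and shorter methylated stretches than endosperm. Embryo peaks covered 57.5 Mb, against 49.0 Mb in endosperm, a ratio of 1.17, while the number of peaks differed by a ratio of 1.53. The median peak was 879 bp long in embryo and 1027.5 bp long in endosperm. Depth was 8423857 filtered tags (aligned reads kept by the peak caller) in embryo and 7465986 in endosperm, a ratio of 1.13. Of these tags 59.9% lay inside embryo peaks and 54.2% inside endosperm peaks. With 1 library of each tissue, tissue and depth cannot be told apart. The tissues shared 30.0 Mb of covered sequence, with 27.5 Mb covered in embryo alone and 19.0 Mb covered in endosperm alone. The shared part was 52.2% of the embryo total and 61.2% of the endosperm total. With equal numbers of highest-scoring peaks, 36132 in each list, the covered-length ratio turned to 0.837.

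Peaks of at least 3 kb belonged mainly to endosperm. There were 739 such peaks in embryo and 2321 in endosperm, holding 2.87 Mb and 9.88 Mb. Endosperm peaks covered 71.6% of the sequence inside the long embryo peaks, and embryo peaks covered 56.1% of the sequence inside the long endosperm peaks. Of the long embryo peaks 20 (2.71%) overlapped at least 2 separate endosperm peaks, while 583 (25.1%) of the long endosperm peaks overlapped at least 2 embryo peaks. These long stretches were dense in tags. The median long peak held 4.02 times the mean tag density of the library in embryo and 4.69 times in endosperm, taking the effective genome of 360 Mb as the base. Their deposited fold enrichment, set against the 10 kb around the peak, was nevertheless low, with medians of 4.53 in embryo and 3.89 in endosperm, against 6.62 and 6.27 for peaks under 1 kb in embryo and endosperm.

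About every other embryo peak had no counterpart in endosperm. Of the embryo peaks 27714 (50.2%, 95% exact interval 49.8 to 50.6) shared not a single base with an endosperm peak. Of the endosperm peaks 9667 (26.8%, 26.3 to 27.2) shared no base with an embryo peak. These are called embryo-only and endosperm-only peaks here, and the intervals cover counting error only. Embryo-only peaks covered 23.4 Mb and held 23.7% of the filtered embryo tags. Endosperm-only peaks covered 9.996 Mb and held 9.30% of the filtered endosperm tags. When both lists were held to the same number of best-scoring peaks, the shares were 44.6% for embryo and 44.9% for endosperm. When peaks scoring at least 100 were set against every peak of the other tissue, they were 44.3% for embryo and 16.2% for endosperm. The score is 10 times the negative base-10 logarithm of the p-value the authors' peak caller gave the peak.

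Tissue-only peaks were shorter and lower than peaks found in both tissues. A longer peak more easily shares a base with the other list, and its tag number grows with its length. Both differences therefore follow in part from the definition. Levels are given as tags of the peak per 1000000 filtered tags of its library (RPM). The median embryo-only peak was 750 bp long with 7.18 RPM, and embryo peaks that overlapped endosperm had medians of 1068.5 bp and 10.9 RPM. The median endosperm-only peak was 853 bp long with 7.10 RPM, and overlapping endosperm peaks had medians of 1118 bp and 11.5 RPM. Tag density differed less in embryo, with a median of 79.5 tags per kb in embryo-only and 82.7 in overlapping peaks. In endosperm it was 62.9 tags per kb in endosperm-only and 75.5 in overlapping peaks. Scores had medians of 109.92 for embryo-only and 149.32 for overlapping embryo peaks. They had medians of 82.37 for endosperm-only and 140.29 for overlapping endosperm peaks.

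The share of tissue-only peaks was smaller the higher the level. Level grows with length, and longer peaks more easily overlap the other list, so this too follows in part from the definition. When embryo peaks were ranked by RPM and divided into 5 classes of similar size, 73.0%, 62.3%, 54.1%, 40.1% and 22.4% were embryo-only from the lowest to the highest class. Endosperm peaks, divided in the same way by their own levels, were endosperm-only in 45.1%, 35.8%, 26.7%, 18.2% and 8.62% of cases. In each class the embryo share was the larger. By length, 64.6% of embryo peaks under 1 kb were embryo-only, 29.3% of those of 1 to 2 kb, 12.96% of those of 2 to 3 kb and 20.6% of those of at least 3 kb. For endosperm the shares were 36.5%, 21.1%, 12.7% and 7.45% in the same order of length.

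**Figure D1:**
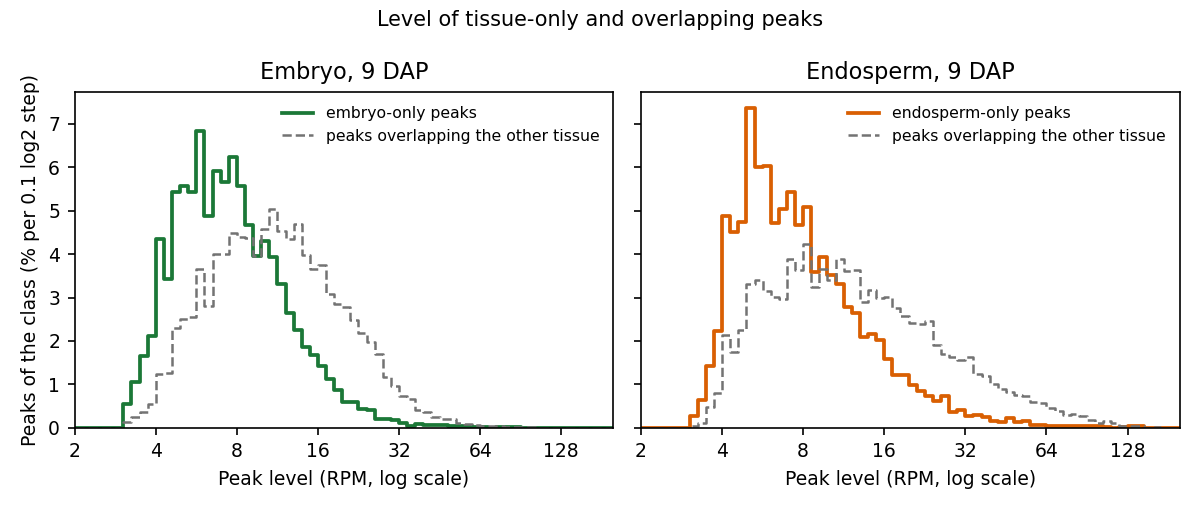
Distribution of peak levels at 9 DAP, in RPM on a log axis, as the percentage of peaks of a class in each step, for embryo on the left and endosperm on the right. Solid lines are tissue-only peaks and dashed lines are peaks that overlap the other tissue; the tissue-only peaks sit lower, with medians of 7.18 against 10.9 RPM in embryo and 7.10 against 11.5 RPM in endosperm.

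The tag numbers of most tissue-only peaks lay within the range of the other list. Scaled to the depth of endosperm, 23078 of the embryo-only peaks (83.3%) held at least 36 tags, which is the level that 90% of the listed endosperm peaks reach, and 7170 (25.9%) held at least 74 tags, the median of the endosperm list. Scaled to the depth of embryo, 8105 of the endosperm-only peaks (83.8%) held at least 40 tags, the level that 90% of embryo peaks reach, and 3572 (37.0%) held at least the embryo median of 73 tags. A peak is listed by its contrast to the local background and not by its tag number alone, so these counts do not tell whether a stretch would have been listed in the other tissue. An endosperm-only peak of 1035 tags, for one, had a score of 50.36, just above the lowest listed score of 50. The lists give no tag number outside peaks, so the level of a tissue-only peak in the other tissue is not known.

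Embryo-only peaks lay farther from the nearest peak of the other tissue. The median distance was 3224 bp for embryo-only and 1838 bp for endosperm-only peaks. A peak of the other tissue lay within 500 bp of 11.1% of the embryo-only and 19.3% of the endosperm-only peaks. More than 5 kb separated 35.8% of the embryo-only peaks and 18.6% of the endosperm-only peaks from the other tissue, and more than 20 kb separated 936 and 46 of them. From one peak to the next, the median distance was 3896 bp for embryo and 5534 bp for endosperm.

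Embryo-only peaks often came in groups with no endosperm peak between them. On the 12 chromosomes, 27693 embryo-only peaks fell into 14168 stretches between neighbouring endosperm peaks, and 5809 of them (21.0%) stood in 922 stretches with at least 5 peaks. The 9655 endosperm-only peaks fell into 7803 stretches between embryo peaks, and 173 of them (1.79%) stood in 29 stretches with at least 5 peaks. Single peaks made up 27.9% of the embryo-only and 66.3% of the endosperm-only peaks. The number in a stretch also depends on how densely the peaks of each tissue lie.

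The 3 fullest stretches of each kind were picked after their values were seen. On chromosome 2, from 33363607 to 33484397 (121 kb), there were 21 embryo peaks with 1647 tags in all and no endosperm peak. On chromosome 3, the 102 kb from 28284751 to 28387003 held 20 embryo peaks with 2052 tags, and the 121 kb from 4768308 to 4889661 held 19 with 1411 tags. Of these 21, 20 and 19 peaks, 18, 17 and 18 overlapped a peak of embryo at 3 DAP and 18, 18 and 17 a peak of embryo at 6 DAP. The stretch with most endosperm peaks lay on chromosome 8 from 13159020 to 13344905, with 15 endosperm peaks, 686 tags and no embryo peak over 186 kb. Chromosome 11 followed with 9 endosperm peaks between 25963389 and 26017147, and chromosome 4 with 8 between 3733258 and 3768385. Of these 15, 9 and 8 peaks, 10, 6 and 4 overlapped a peak of endosperm at 3 DAP and 8, 6 and 4 a peak of endosperm at 6 DAP.

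The libraries of earlier stages, which the rule did not use, showed most tissue-only peaks in the same tissue. Of the embryo-only peaks 72.9% overlapped a peak of embryo at 3 DAP and 78.3% a peak of embryo at 6 DAP. They overlapped endosperm peaks of 2, 3 and 6 DAP in 11.7%, 12.9% and 12.0% of cases. Of the endosperm-only peaks 55.9%, 62.5% and 68.5% overlapped a peak of endosperm at 2, 3 and 6 DAP, and 27.2% and 27.3% overlapped a peak of embryo at 3 and 6 DAP. For comparison, 92.6% and 91.6% of the embryo peaks that overlapped endosperm at 9 DAP were found in embryo at 3 and 6 DAP, and 90.4% and 89.2% of the overlapping endosperm peaks in endosperm at 3 and 6 DAP.

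**Figure D2:**
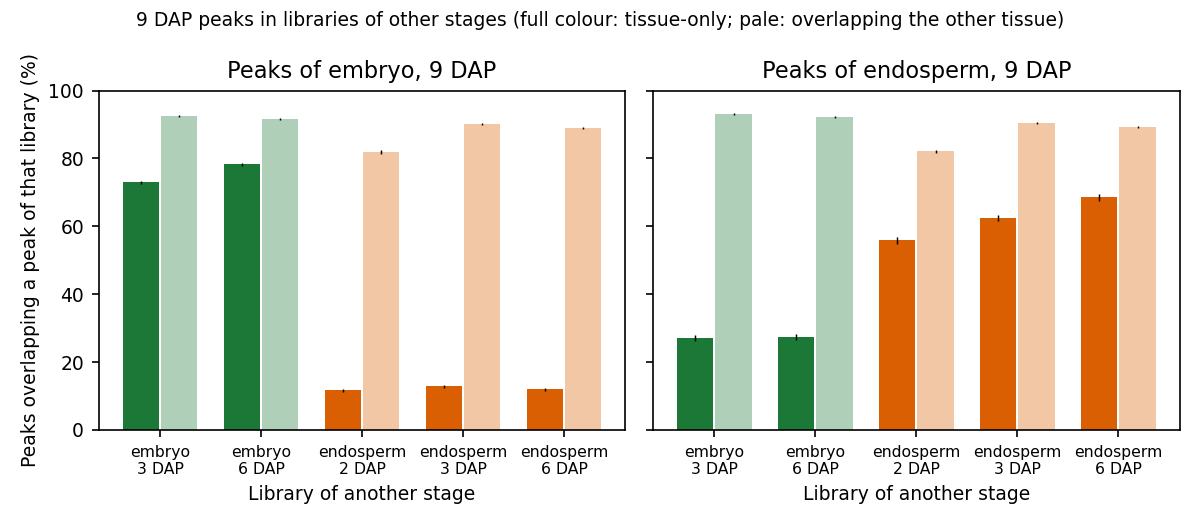
Percentage of 9 DAP peaks of embryo (left) and endosperm (right) that overlap a peak of each of 5 libraries of other stages; full colour marks tissue-only peaks, pale colour peaks that overlap the other tissue at 9 DAP, and error bars are exact 95% intervals of the share. Embryo-only peaks reached 72.9% and 78.3% in the embryo libraries and stayed between 11.7% and 12.9% in the endosperm libraries, while endosperm-only peaks reached 27.2% and 27.3% in the embryo libraries.

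Over all earlier libraries, 18399 embryo-only peaks (66.4%, 95% exact interval 65.8 to 66.9) were present in embryo at both 3 and 6 DAP, against 4840 endosperm-only peaks (50.1%, 49.1 to 51.1) present in endosperm at both 3 and 6 DAP. Present at both stages and absent from every library of the other tissue at earlier stages were 14162 embryo-only peaks (51.1%) and 2207 endosperm-only peaks (22.8%). Among overlapping peaks these shares were 2.87% in embryo and 1.56% in endosperm. The lists searched differed in size, with 32986, 36511 and 36871 peaks in endosperm and 51509 and 53391 in embryo. Shares of the 2 tissues are therefore not directly comparable, whether they rest on lists of the same tissue or of the other tissue. Presence at both earlier stages, whatever the other tissue showed, held for 87.6% of overlapping embryo peaks and 84.9% of overlapping endosperm peaks. No earlier library of either tissue held a peak at 3643 embryo-only (13.1%) and 1322 endosperm-only (13.7%) positions. These were low peaks, with medians of 4.99 RPM in embryo and 5.09 RPM in endosperm, and median scores of 65.77 and 62.425. At 2027 embryo-only positions (7.31%) endosperm had a peak at both 3 and 6 DAP, and at 1504 endosperm-only positions (15.6%) embryo had a peak at both 3 and 6 DAP. Among overlapping peaks these shares were 84.3% in embryo and 88.4% in endosperm. Overlapping peaks with no peak in any earlier library made up 0.549% in embryo and 0.563% in endosperm.

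The 6 embryo-only peaks with the highest RPM were long. The highest lay on chromosome 5 from 29803350 to 29810189, with 953 tags or 113 RPM over 6840 bp. It was followed by chromosome 3 from 36054978 to 36062287 with 834 tags (99.0 RPM), chromosome 8 from 1868856 to 1875806 with 779 tags (92.5 RPM) and chromosome 12 from 19938279 to 19944139 with 742 tags (88.1 RPM). Chromosome 2 from 16741217 to 16747911 had 728 tags (86.4 RPM), as the fifth, and the sixth was chromosome 4 from 25583197 to 25589270 with 718 tags (85.2 RPM). Their tag density was 4.65 to 5.95 times the library mean, and their deposited fold enrichment was 2.73 to 4.39. Earlier libraries differed among these 6. The chromosome 5 peak was in embryo at both earlier stages but also in endosperm at 2 and 6 DAP, the chromosome 3 peak was in embryo at 3 DAP and in endosperm at 2 and 3 DAP, and those on chromosomes 8 and 12 were in no other library. The peaks on chromosomes 2 and 4 were each in 1 earlier embryo library and in no endosperm library.

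The 6 endosperm-only peaks with the highest RPM were higher still. The first lay on chromosome 2 from 33277149 to 33284695, with 1089 tags or 146 RPM over 7547 bp, and was in no other library. Chromosome 11 from 13078752 to 13087096 followed with 1035 tags (139 RPM), chromosome 12 from 11815185 to 11821967 with 1027 tags (138 RPM) and chromosome 10 from 5106393 to 5113593 with 998 tags (134 RPM). Chromosome 12 from 14759499 to 14767534 had 996 tags (133 RPM) and chromosome 3 from 17180654 to 17187322 had 987 tags (132 RPM). Their density was 5.98 to 7.30 times the library mean and their deposited fold enrichment 2.35 to 3.05. At the chromosome 11 region and both chromosome 12 regions, embryo had a peak at 3 and at 6 DAP, and the chromosome 3 region had an embryo peak at 6 DAP. So 4 of these 6 regions had an embryo peak at an earlier stage.

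Ranked by score, a choice made after the values were seen, the 6 leading embryo-only peaks were 964 to 2385 bp long, longer than the embryo-only median of 750 bp and shorter than the 6 with the highest RPM. The first lay on chromosome 1 from 30847589 to 30848889, with 274 tags (32.5 RPM) over 1301 bp, a fold enrichment of 12.13 and 9313 bp to the nearest endosperm peak. Next were chromosome 1 from 6976905 to 6979289 with 376 tags (44.6 RPM), chromosome 5 from 22652837 to 22654391 with 261 tags (31.0 RPM) and chromosome 10 from 22078779 to 22079742 with 194 tags (23.0 RPM). Chromosome 6 from 26469779 to 26471059 had 215 tags (25.5 RPM) and chromosome 7 from 2462316 to 2463424 had 199 tags (23.6 RPM). All 6 were in embryo at 3 and 6 DAP. Those on chromosome 1 at 30847589, chromosome 5 and chromosome 10 were in no endosperm library, the other chromosome 1 peak was in endosperm at 3 DAP, the chromosome 7 peak in endosperm at 2 DAP and the chromosome 6 peak in endosperm at 2, 3 and 6 DAP. Scores of these peaks ran from 1032.8 to 1119.5.

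The 6 endosperm-only peaks with the highest scores had scores of 531.07 to 635.05. Scores describe peaks within their own list and are not compared between the tissues. The first lay on chromosome 7 from 2364928 to 2366652 with 218 tags (29.2 RPM), followed by chromosome 10 from 1461932 to 1464054 with 196 tags (26.3 RPM) and chromosome 1 from 16744734 to 16747681 with 294 tags (39.4 RPM). Then came chromosome 8 from 10905880 to 10907114 with 139 tags (18.6 RPM), chromosome 3 from 12476434 to 12477931 with 151 tags (20.2 RPM) and chromosome 8 from 20041546 to 20043676 with 248 tags (33.2 RPM). All 6 were in endosperm at 2, 3 and 6 DAP. The chromosome 1 peak was in no embryo library and lay 16192 bp from the nearest embryo peak at 9 DAP. The other 5 had an embryo peak at an earlier stage, at both 3 and 6 DAP for the 2 regions on chromosome 8 and at 6 DAP for those on chromosomes 7, 10 and 3.

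Where both tissues had a peak, the peaks mostly stood at the same place. Merging overlapping peaks of the 2 lists gave 26056 regions with a peak of each tissue, of which 24301 (93.3%) were made of 1 embryo and 1 endosperm peak. In these pairs the summits, the positions of highest pile-up, were a median of 70 bp apart, 70.7% were within 200 bp and 4.45% were over 1000 bp apart. The embryo peak lay inside the endosperm peak in 31.8% of the pairs and the endosperm peak inside the embryo peak in 24.4%, and the rest were staggered. In 1352 regions at least 2 embryo peaks met 1 endosperm peak, and in 319 regions 1 embryo peak met at least 2 endosperm peaks.

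Levels in these regions were on the whole close. The median region had 11.4 RPM in embryo and 11.7 RPM in endosperm, and the median log2 ratio of embryo to endosperm was -0.17, with 10% of regions under -1.16 and 10% above 0.999. The ratio was under 2-fold in 19930 regions (76.5%). With 1 library per tissue no test is possible, and a difference was called where RPM differed at least 2-fold. Levels were at least 2-fold higher in embryo in 2598 regions (9.97% of those compared) and at least 2-fold higher in endosperm in 3528 (13.5%). The difference reached 4-fold in 177 regions in favour of embryo and in 387 in favour of endosperm.

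The balance of directions depended on the scale. Relative to the median of all overlapping regions, 3580 regions were at least 2-fold higher in embryo and 2515 in endosperm, so the majority changed sides. Scaled to the tags inside peaks instead of all filtered tags, the numbers were 1943 and 4701. The level of a region is the product of the length of its peaks and their tag density. Embryo peaks were at least 2-fold longer in 602 regions, and endosperm peaks in 1830. Per kb of peak, RPM was at least 2-fold higher in embryo in 756 regions (2.9%) and in endosperm in 166 (0.637%). The median log2 ratio was -0.05 for length and -0.08 for RPM per kb.

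**Figure D3:**
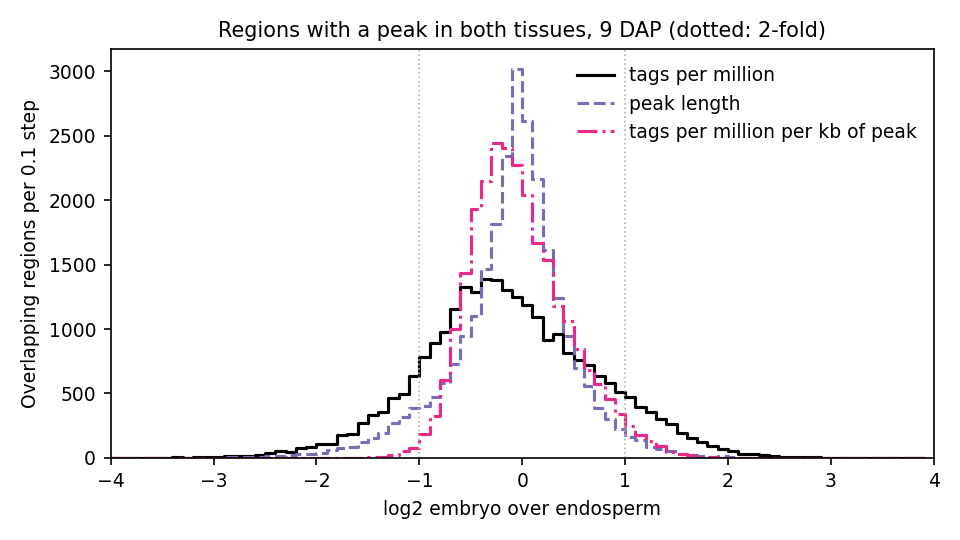
Number of regions with a peak in both tissues, by log2 ratio of embryo over endosperm in steps of 0.1, for RPM (solid), summed peak length (dashed) and RPM per kb of peak (dash-dotted); dotted lines mark 2-fold. The tag ratio, with a median of -0.17, spreads more widely than either of its parts, and on the left side peak length reaches farther from 0 than RPM per kb.

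Regions higher in embryo differed from regions higher in endosperm in both parts. These regions were called on their level, the product of both parts, so a lean of the parts towards the higher tissue follows from the call. Over all overlapping regions the median densities were 9.85 RPM per kb in embryo and 10.1 in endosperm. In the 2598 regions higher in embryo, peaks had a median length of 1218.5 bp in embryo and 771 bp in endosperm, and a median density of 13.2 RPM per kb in embryo and 7.57 in endosperm. In the 3528 regions higher in endosperm, the median lengths were 1054 bp in embryo and 2282 bp in endosperm, and the median densities 8.40 RPM per kb in embryo and 11.6 in endosperm. Density went against the direction of the level in 70 regions (2.69%) of the embryo-higher and 250 (7.09%) of the endosperm-higher group.

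The direction of these differences held in the earlier pairs of libraries. Of the 2598 regions higher in embryo, 1985 had peaks of both tissues at 3 DAP and 1915 at 6 DAP, with levels summed over whole peaks that overlapped the region. Embryo was higher in 97.4% of them at 3 DAP and 97.7% at 6 DAP, with median log2 ratios of 0.99 and 1.10. Of the 3528 regions higher in endosperm, 3161 had both peaks at 3 DAP and 3032 at 6 DAP, and endosperm was higher in 95.5% and 97.0%, with median log2 ratios of -0.78 and -1.02. Over all overlapping regions, endosperm was higher in 64.6% at 3 DAP and 64.9% at 6 DAP, with medians of -0.24 and -0.29. At 3 DAP, the difference was at least 2-fold in the same direction in 49.1% of the embryo-higher and 33.5% of the endosperm-higher regions that could be compared, against 6.45% and 8.09% of all regions. At 6 DAP these shares were 57.7% and 51.2%, against 7.64% and 12.9% of all regions.

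The 6 regions with the highest ratio had 1 long embryo peak over a short endosperm peak. Tags were counted only inside each tissue's own peaks, so these ratios compare stretches of unequal length. Their intervals cover counting error and not the choice of the most extreme regions. On chromosome 3 from 10595339 to 10597977 there were 386 tags (45.8 RPM) in embryo and 37 (4.96 RPM) in endosperm, a ratio of 9.25 (95% exact counting interval 6.59 to 13.3). The embryo peak spanned 2639 bp and the endosperm peak 654 bp, and the log2 ratio was 3.91 at 3 DAP and 1.93 at 6 DAP. On chromosome 5 from 22857445 to 22859885 there were 335 tags in embryo and 36 in endosperm, a ratio of 8.25 (5.84 to 12.0). Chromosome 1 from 38670728 to 38672490 had 306 tags in embryo and 35 in endosperm, a ratio of 7.75 (5.45 to 11.3), and from 31631324 to 31634055 it had 422 in embryo and 49 in endosperm, a ratio of 7.63 (5.67 to 10.5). Chromosome 2 from 27724025 to 27725716 had 266 tags in embryo and 32 in endosperm, and chromosome 3 from 6967744 to 6971393 had 396 in embryo and 50 in endosperm, ratios of 7.37 (5.09 to 11.0) and 7.02 (5.22 to 9.62). The density alone was higher in embryo by log2 0.88 to 1.52 in these 6. All 6 were higher in embryo at 6 DAP, and so were the 5 with peaks of both tissues at 3 DAP.

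The 6 regions with the lowest ratio had 1 long endosperm peak over a short embryo peak. On chromosome 10 from 17100469 to 17107244 there were 79 tags (9.38 RPM) in embryo and 769 (103 RPM) in endosperm, so endosperm was 11.0-fold higher (8.70 to 14.0). The embryo peak spanned 1232 bp and the endosperm peak 6776 bp. Embryo tags outside the embryo peak were not counted, so this ratio and those below do not compare the same stretch. Their intervals do not cover the choice of extremes. Chromosome 10 from 4392262 to 4399026 had 68 tags in embryo and 647 in endosperm, a 10.7-fold difference (8.35 to 14.0), and chromosome 3 from 18510270 to 18513580 had 30 in embryo and 280 in endosperm, a 10.5-fold difference (7.21 to 15.9). Chromosome 8 from 19637876 to 19642435 had 51 tags in embryo and 467 in endosperm, chromosome 9 from 5483768 to 5489160 had 44 and 390, and chromosome 5 from 12382043 to 12387422 had 52 and 455, in embryo and endosperm. Their ratios were 10.3-fold (7.73 to 14.1), 10.001-fold (7.31 to 14.0) and 9.87-fold (7.40 to 13.42) in favour of endosperm. Density alone differed by log2 -0.998 to -0.29. Each comparison possible in these 6 regions at 3 and 6 DAP, 5 at either stage, had the same direction.

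Embryo exceeded endosperm in covered length on each of the 12 chromosomes, by amounts that differed along them. The ratio was highest on chromosome 3, with 5.79 Mb in embryo and 4.21 Mb in endosperm (1.38), followed by chromosome 1 (1.31), chromosome 2 (1.27) and chromosome 6 (1.24). It was lowest on chromosome 12, with 4.15 Mb in embryo and 4.003 Mb in endosperm (1.04), and next lowest on chromosomes 10 (1.06), 8 (1.09) and 11 (1.09). Chromosomes 9, 5, 7 and 4 lay between, at 1.17, 1.12, 1.12 and 1.12. The share of embryo-only peaks ran from 55.4% on chromosome 3 to 45.2% on chromosome 10 and 45.7% on chromosome 12. The share of endosperm-only peaks ran from 23.9% on chromosome 3 to 29.6% on chromosome 6. Among overlapping regions, 14.5% on chromosome 3 were at least 2-fold higher in embryo and 10.9% in endosperm, while on chromosome 12 these were 6.53% and 17.2%, against 9.97% and 13.5% in all. The sequences not placed on chromosomes, listed as ChrSy and ChrUn, were covered less in embryo than in endosperm, with ratios of 0.842 from 56 and 44 peaks and 0.705 from 9 and 7 peaks.

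The difference varied along the chromosomes. Of 367 complete bins, 265 (72.2%) had more covered length in embryo and 102 more in endosperm. Embryo had at least 1.5-fold more in 98 bins (26.7%), and endosperm in 1 (0.272%). Chromosome 3 held 20 of the 98 in 36 bins, chromosome 1 held 18 in 43 and chromosome 4 held 12 in 35, while chromosomes 11, 12, 5 and 7 held 2, 3, 3 and 3 in 29, 27, 29 and 29 bins. As a share of the chromosome's bins, those with more covered length in endosperm were most frequent on chromosome 12, with 13 of 27, followed by chromosome 10, with 10 of 23, and by chromosomes 4 and 8, with 15 of 35 and 12 of 28. All 98 bins were above a ratio of 1 at 3 and 6 DAP too, and 79 were at or above 1.5 at both. Of the 102 bins with more in endosperm, 73 had more in endosperm at both earlier stages. Under equal numbers of highest-scoring peaks the 1.5-fold counts turned to 16 bins for embryo and 93 for endosperm.

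**Figure D4:**
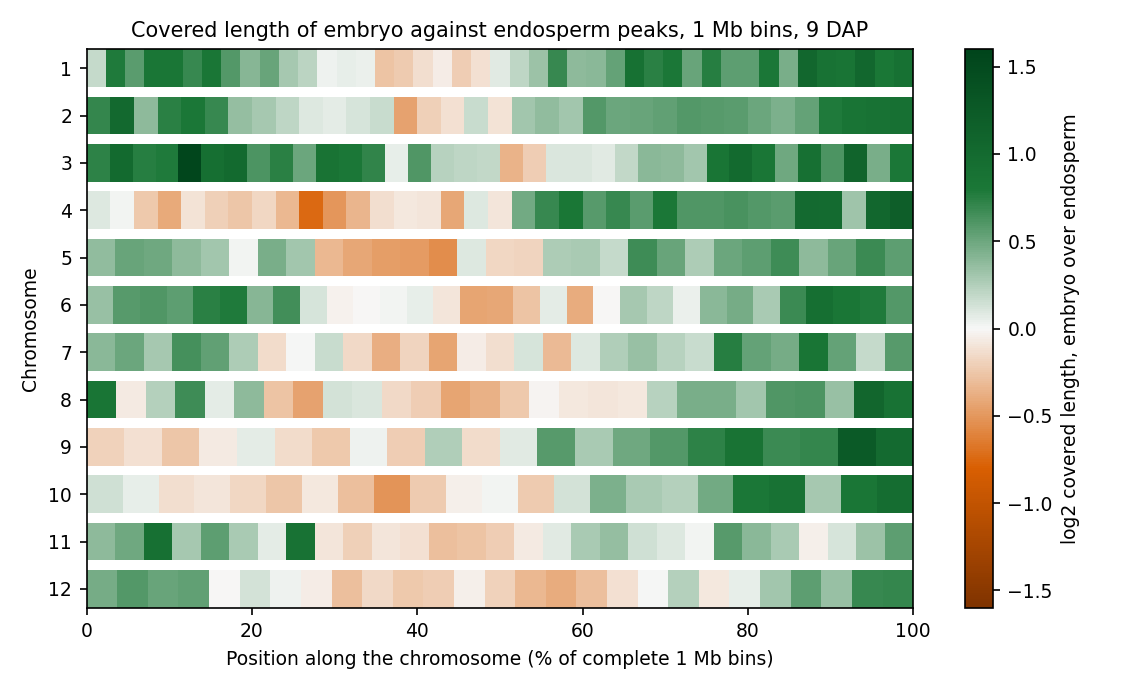
Log2 ratio of the length covered by embryo peaks over that covered by endosperm peaks in each complete 1 Mb bin at 9 DAP, by chromosome (vertical) and position in percent of the chromosome's bins (horizontal); green is more in embryo, orange more in endosperm. Most bins near chromosome ends are green and most orange bins are interior, with exceptions such as the orange first 4 bins of chromosome 9, orange bins within 5 Mb of the start of chromosomes 4 and 10, and strongly green interior bins on chromosome 3; the strongest green bin, with a ratio of 2.97, is on chromosome 3.

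Named bins stood at the ends of this range. The highest ratio, 2.97, was on chromosome 3 from 4000001 to 5000000, with 142 kb covered in embryo and 47.9 kb in endosperm, and 126 of its 168 embryo peaks were embryo-only. Next were chromosome 9 from 20000001 to 21000000 (147 kb in embryo, 61.6 kb in endosperm), chromosome 4 from 34000001 to 35000000 (117 kb and 51.3 kb in embryo and endosperm) and chromosome 3 from 33000001 to 34000000 (112 kb and 51.8 kb), with ratios of 2.39, 2.29 and 2.16. At the other extreme, with a ratio of 0.599, chromosome 4 from 9000001 to 10000000 had 120 kb in embryo and 201 kb in endosperm. It was followed by chromosome 5 from 12000001 to 13000000 (170 kb in embryo, 251 kb in endosperm), chromosome 10 from 8000001 to 9000000 (159 kb and 227 kb) and chromosome 4 from 10000001 to 11000000 (180 kb and 256 kb), with ratios of 0.678, 0.699 and 0.703. Of the overlapping regions in these 4 bins, 19 of 61, 33 of 87, 32 of 87 and 27 of 95 were at least 2-fold higher in endosperm. Over all overlapping regions the share was 13.5%. In the 4 highest bins, 10 of 41, 8 of 51, 15 of 38 and 9 of 39 were at least 2-fold higher in embryo, against 9.97% of all. Both excesses follow in part from the choice of bins, since the level of a region grows with the length of its peaks. All 8 bins lay on the same side of 1 at 3 and 6 DAP.

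Bins were also ordered by distance from the chromosome end, with the far end taken as the last peak of either list. In bins whose outer edge was under 2 Mb from an end, embryo peaks covered 130 kb per Mb and endosperm peaks 88.8 kb per Mb, a ratio of 1.46. The ratio was 1.37 at 2 to 5 Mb, 1.17 at 5 to 10 Mb and 1.02 at 10 Mb or more, where embryo peaks covered 161 and endosperm peaks 157 kb per Mb. Embryo-only peaks made up 58.8%, 55.4%, 49.7% and 44.4% of embryo peaks from the outermost to the innermost class. Endosperm-only peaks made up 25.9%, 26.0%, 26.6% and 27.5% of endosperm peaks. Regions at least 2-fold higher in embryo made up 13.6% of overlapping regions in the outermost class and 6.99% in the innermost, and regions higher in endosperm 9.39% and 16.8%. The innermost ratio was below 1 with a score of 100 or more (0.999) and with equal numbers of peaks (0.708).

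Bins were then ranked by covered length averaged over the 5 libraries of other stages, 2 of embryo and 3 of endosperm, and divided into 5 classes. In order of increasing density, embryo peaks covered 115, 144, 161, 168 and 183 kb per Mb and endosperm peaks 75.03, 97.5, 122, 159 and 206 kb per Mb, so the ratio went from 1.53 through 1.48, 1.32 and 1.06 to 0.888. Endosperm libraries outnumbered embryo libraries in the ranking, and endosperm coverage differed more between the classes than embryo coverage. A fall of the ratio, or of the embryo-only share, with density can therefore follow in part from the ranking. With a fold enrichment of 5 or more the ratio of the richest class turned to 1.34, while that of the poorest was 1.75. With equal numbers of peaks the ratios were 1.14, 1.09, 0.962, 0.742 and 0.589 in the same order. Embryo-only shares were 59.9%, 57.1%, 53.3%, 45.3% and 36.9%, and endosperm-only shares stayed between 25.1% and 27.6%. Regions at least 2-fold higher in embryo made up 15.2% of overlapping regions in the poorest and 3.92% in the richest class, and regions higher in endosperm 7.48% and 21.9%. Scaled to the tags inside peaks, the poorest class was close to even, with 11.1% for embryo and 10.8% for endosperm, the second had 11.6% and 11.7%, the third 9.48% and 13.3%, and the richest 2.64% and 28.3%, again with embryo before endosperm. After centring on the median region the shares of the poorest and richest classes were 20.3% and 5.72% for embryo and 5.17% and 15.9% for endosperm. Per kb of peak they were 4.88% and 0.772% for embryo, while those for endosperm, 0.486% and 0.742%, differed little.

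**Figure D5:**
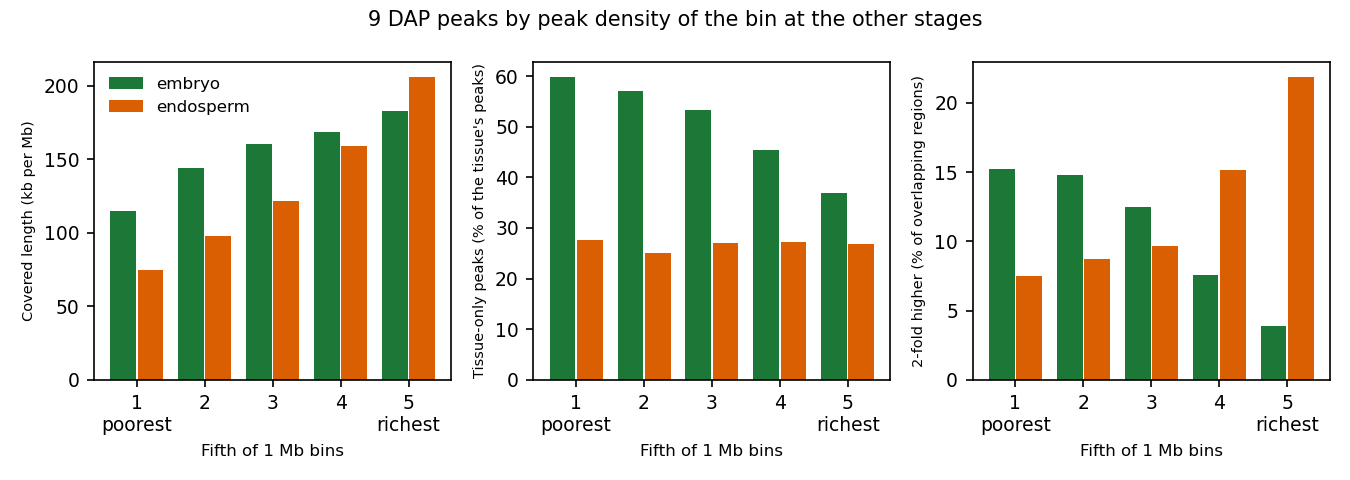
Values of 1 Mb bins at 9 DAP in 5 classes of peak density, ranked by the 5 libraries of other stages, for embryo (green) and endosperm (orange): covered length in kb per Mb (left), tissue-only peaks as a percentage of the tissue's peaks (middle) and overlapping regions at least 2-fold higher in that tissue as a percentage of all (right). Embryo coverage is higher in the poorest class, 115 against 75.03 kb per Mb, and lower in the richest, 183 against 206 kb per Mb. Part of this contrast can follow from the ranking, in which endosperm libraries outnumber embryo libraries.

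Set beside the earlier stages, the 2 lists overlapped least at 9 DAP. Length covered in both tissues over length covered in either (the Jaccard index) was 0.484, 0.436 and 0.392 at 3, 6 and 9 DAP. In regions overlapping at a stage, the share at least 2-fold higher in embryo was 7.09%, 8.34% and 9.97% at 3, 6 and 9 DAP, and the share higher in endosperm 7.29%, 12.7% and 13.5%. With 1 library per tissue and stage, no test of these differences between stages was possible.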

How the data were processed

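The authors deposited 1 peak list per library. MACS 1.4.2 called them on each library alone, without a control library, per the file headers. Its settings there are a p-value limit of 1e-05, an effective genome of 360 Mb and at most 1 tag per position, with fragments of 200 bp, tags of 41 bp and the library itself over 10 kb as background. Bowtie2 is named beside MACS in the submitters' processing notes. No build or alignment setting is given in the sources used here. A deposited tag count of a peak is a whole number of reads. The deposited score is 10 times the negative log10 of the p-value, with 50 as its lowest value, and the deposited fold enrichment is a ratio to the local background. Lengths and summits were used as the authors deposited them. Score and fold describe or filter peaks within their own list.

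Overlap meant at least 1 shared base. RPM was the tag count per 1000000 filtered tags. Intervals are exact (Clopper-Pearson, 95%, for ratios conditional on the sum of both counts). They cover counting error only, since the labels name PCR but no molecular identifiers, and reads need not be separate molecules. Regions named are the 6 tissue-only peaks of each tissue with the highest RPM, the 6 overlapping regions at either extreme of the ratio with at least 20 tags in each library, and the 4 bins of 1 Mb at either extreme. The comparisons and these rules were chosen with earlier results of these data known. The ranking by score, the stretches, the classes of bins by density and by distance from an end, and the alternatives for those classes were added after values were seen. The overlap functions were tested on simulated lists. Python 3.11.15, numpy 2.4.6, pandas 2.3.3, scipy 1.17.1 and matplotlib 3.10.9 were used.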

Additional observations from a re-analysis of the deposited data

Results flagged for a closer look

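One chromosome had a direction at 9 DAP that was opposite to that of the earlier stages. The median log2 ratio of embryo to endosperm RPM over the overlapping regions of chromosome 3 was -0.091 at 3 DAP, -0.13 at 6 DAP and 0.0048 at 9 DAP, so the 9 DAP value lay just above 0. The median rose from 6 to 9 DAP on each chromosome, and over all regions overlapping at a stage it went from -0.28 to -0.17. Chromosome 3 had the highest median at each stage, so the rise took it past 0. Per kb of peak, its median at 9 DAP was -0.012. The change of sign was not tested, because there is 1 library of each tissue at a stage.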

How the results depend on the processing

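Settings were changed one at a time, and values are given for embryo before endosperm. At a score of 100 or more, a fold enrichment of 5 or more and equal numbers of highest-scoring peaks, in this order, the covered-length ratio was 1.18, 1.52 and 0.837 (1.17 as reported) and the peak-number ratio 1.63, 1.73 and 1.0, the last by construction. The Jaccard index was 0.330, 0.290 and 0.348. Embryo-only shares were 58.6%, 61.5% and 44.6%, and endosperm-only shares 33.8%, 34.6% and 44.9%. Shares found at both earlier stages of the same tissue were 89.6%, 74.5% and 87.0% for embryo-only and 84.5%, 61.7% and 60.9% for endosperm-only peaks. The median log2 RPM ratio was -0.21, 0.0026 and -0.037, so the fold limit turned its sign. Regions higher in embryo numbered 827, 2027 and 2524, and regions higher in endosperm 1784, 1400 and 2112. As reported the counts were 2598 and 3528, so the majority turned to embryo at the fold limit and with equal numbers. Bins with 1.5-fold more in embryo numbered 194 at the fold limit and 16 with equal numbers, and 223 of 740 with bins of 500 kb.

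Requiring 50% of a peak to be covered gave tissue-only shares of 52.1% and 33.0% and shares kept at both earlier stages of 65.1% and 47.3%. Counting peaks within 500 bp as overlapping gave 44.6% and 21.6%, and querying only peaks with a score of 100 or more gave 44.3% and 16.2%. Per kb of peak, the median log2 ratio was -0.083 and the counts 756 and 166. The median was -0.32 when scaled to the tags inside peaks and -0.15 in regions of 1 peak each, and centring sets it to 0. Bins 10 Mb or more from an end had ratios of 0.999 at the score limit and 0.708 with equal numbers, and the richest class 1.34 at the fold limit. The cause of these changes was not tested, apart from those set by construction. Direction was scored only for ratios of covered length and peak number and for the median log2 ratio. By that score 5 of 80 recalculated values changed direction. A change of majority between paired counts or shares was not counted, such as 98 and 1 bins turning to 16 and 93. Counts of regions and bins were held to 1.5-fold, shares and medians to their counting interval or less, and by this measure 12 were unmoved and 63 moved, many of them by little. Values with at least 20 tags in each library were unmoved by construction, since every listed peak held more. Covered-length ratios, peak-number ratios and the Jaccard index counted as moved at any change, so the tally does not measure stability. No paired analysis was possible because at 9 DAP each tissue is 1 library; the embryo and endosperm libraries of 3, 6 and 9 DAP were not tested as pairs, since they differ in stage. Leaving out a replicate was not possible for the same reason. The lowest listed peak held 26 tags in embryo and 24 in endosperm, and since peaks are called against the local background, stretches with more tags than this can also be missing from a list.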
